A study of Mus musculus with 21 samples.

Results

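The Gimap genes (GTPases of immunity-associated proteins) were examined in T cells, CD4+ and CD8+, of the mouse spleen. The members were the rows of the spleen table named Gimap1, Gimap3, Gimap4, Gimap5, Gimap6, Gimap7, Gimap8 and Gimap9, which are 8 of its 12994 genes, and all 8 were found. GIMAP proteins are GTP-binding proteins made mostly by lymphocytes, and they are best known for keeping mature T cells alive outside the thymus. Some sit in membranes of the endoplasmic reticulum, mitochondria or lysosomes, and they have been tied to BCL2 family proteins, autophagy and the control of GSK3. Loss of Gimap5 in rats or mice is known to leave the animals short of peripheral T cells.

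All mice were female C57BL6/J. Mice in the enriched environment (EE) had spent 4 weeks, from weaning at 4 weeks after birth, in large cages with toys, tunnels and running wheels, and mice in the standard environment (SE) had lived in smaller cages without objects. The labels give no separate age for the SE mice. The paper refers to age-matched mice and states that animals were randomized to SE or EE. According to the labels, the animals of each environment in an experiment shared a cage, so that cage and housing cannot be told apart. Lymphocytes were sorted by flow cytometry as CD45+ CD11b- CD3+ cells bearing CD4 (LT4 in the labels) or CD8 (LT8). CD4+ samples came from 6 EE and 5 SE mice and CD8+ samples from 6 EE and 4 SE mice, 21 samples in all, and 9 animal numbers of the same housing occur in both populations and were taken from these labels as the same mouse. Each cDNA molecule was tagged during reverse transcription, at the end that corresponds to the 5′ end of the transcript, with a unique molecular identifier (UMI), so that amplified copies were counted once. The deposited values are molecule counts divided by a size factor per sample and are called normalized counts here. Libraries held 145546 to 221454 molecules, of which 306 to 525 came from the 8 Gimap genes (0.167% to 0.285%).

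The sorted populations carried their defining markers. Cd4 had a mean normalized count of 63.5 and 52.2 in CD4+ samples of EE and SE mice and of 0.161 and 0.694 in CD8+ samples, and Cd8b1, a chain of the CD8 receptor, had 206 and 204 in CD8+ samples and 2.54 and 4.92 in CD4+ samples. RNA of other cells was also present. The summed level of 8 B-cell markers ran from 36.0 to 365 in the CD4+ samples and from 34.8 to 106 in the CD8+ samples, and 5 of the 7 tested were called higher in CD4+ samples. Ighm, the heavy chain of IgM, had group means of 37.7 to 41.2 and made up most of the mean sum in CD8+ samples, whereas the B-cell surface marker Ms4a1 was at 0 in all 10 CD8+ samples. Of 4 NK-cell markers 3 were in the table; Klrd1 and Nkg7, which CD8+ T cells also use, were called lower in CD4+ samples (-2.89 and -3.59 on the log2 scale), and Klrb1c, a defining NK-cell marker, had a group mean of at most 0.484. Of 6 myeloid markers 4 were in the table, with sums of 11.4 to 57.7 in CD4+ and 13.7 to 47.1 in CD8+ samples, and the 1 tested, Cst3, was not called. Haemoglobin and platelet genes (5 of the 6 in the list were in the table) summed to 578 in CD8+ EE replicate 6 and to 1028 in CD8+ SE replicate 3, against at most 26.7 in every CD4+ sample. B cells are lymphocytes and also use Gimap genes, and the part of this RNA in the differences between CD4+ and CD8+ samples was not tested. In bulk samples such as these, a change in the share of cells that use a gene and a change of its RNA per cell cannot be told apart.

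The 8 genes form a single cluster of 123.6 kb on chromosome 6 of GRCm38, from 48647234 to 48770851 in the GENCODE annotation (release M21). Gimap8 (ENSMUSG00000064262) opens the cluster at 48647234-48660875 and is followed by Gimap9 (48676129-48679114), Gimap4 (ENSMUSG00000054435, 48684549-48692060), Gimap6 (48701582-48708225), Gimap7 (48718621-48724636), Gimap1 (48739054-48743795), Gimap5 (ENSMUSG00000043505, 48746197-48754210) and Gimap3 (ENSMUSG00000039264, 48764464-48770851). Gimap6 and Gimap3 lie on the minus strand and the other 6 on the plus strand. All are protein coding, with 2 to 5 exons in the transcript used for lengths.

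Gimap3 and Gimap5 are close copies, which limits how well reads from the sequence they share can be told apart. Their coding sequences were 94.0% identical over 861 aligned bases, whereas the other 27 pairs of members were 70.9% to 79.8% identical. They also shared an unbroken run of 140 coding bases, while no other pair shared a run of more than 17. The run is shown because a read that falls wholly inside it could come from either gene; it lies at chr6:48765681-48765820 on the minus strand in Gimap3 and at chr6:48752684-48752823 on the plus strand in Gimap5.
Gimap3 and Gimap5: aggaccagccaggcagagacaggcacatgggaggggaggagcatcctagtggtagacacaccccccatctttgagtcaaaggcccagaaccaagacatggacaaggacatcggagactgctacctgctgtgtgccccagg
Of all 50-base words in the annotated transcripts, 190 were common to both genes, or 7.52% of those of Gimap3 and 4.53% of those of Gimap5, and no other pair shared any. The authors kept reads with at least 50 bases of cDNA, in which the molecular identifier stood just before the cDNA. The run begins at coding base 175 of Gimap3 and 187 of Gimap5, and the words were counted over whole transcripts. How many reads reached shared sequence was not tested. The level of either gene could include or lack molecules of the other to that extent, and the size of that part was not tested.

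Other transcripts overlap members of the cluster. Gimap1os, a noncoding gene on the opposite strand, covers 36.0% of the annotated exonic bases of Gimap1 and was counted at 0 to 14 molecules per sample. Gm28053, a read-through gene on the same strand, contains all 81 bases of the first exon of Gimap7 and 100 of the 103 bases of the first exon of Gimap1, and was counted at 0 to 6 molecules. It also shares 153 exonic bases (3.69%) with Gimap5. Molecules were counted with the Drop-seq tools at default settings, and the sources used here do not spell out how strand and shared exons were treated, so the levels of Gimap1, Gimap5 and Gimap7 are uncertain to that extent.

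The promoters of the most abundant members and of Gimap5 are shown, since the results below turn on these genes. Each stretch is the 250 bases before the RefSeq gene start (GRCm38.p6), read 5′ to 3′ on the strand of the gene, and all 8 members had an entry. Capitals mark AGGAAG or its reverse complement CTTCCT, letters bound by many Ets-family factors.
Gimap4, chr6:48684328-48684577, plus strand: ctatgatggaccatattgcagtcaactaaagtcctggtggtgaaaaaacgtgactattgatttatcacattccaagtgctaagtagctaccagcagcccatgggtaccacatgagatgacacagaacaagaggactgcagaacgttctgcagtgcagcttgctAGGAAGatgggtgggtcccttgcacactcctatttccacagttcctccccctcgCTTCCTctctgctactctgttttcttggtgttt
Gimap3, chr6:48770852-48771101, minus strand: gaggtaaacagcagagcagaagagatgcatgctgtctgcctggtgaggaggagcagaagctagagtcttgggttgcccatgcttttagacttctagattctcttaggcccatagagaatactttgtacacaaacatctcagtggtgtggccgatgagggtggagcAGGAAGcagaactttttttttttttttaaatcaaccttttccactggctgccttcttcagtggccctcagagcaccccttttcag
Gimap6, chr6:48708245-48708494, minus strand: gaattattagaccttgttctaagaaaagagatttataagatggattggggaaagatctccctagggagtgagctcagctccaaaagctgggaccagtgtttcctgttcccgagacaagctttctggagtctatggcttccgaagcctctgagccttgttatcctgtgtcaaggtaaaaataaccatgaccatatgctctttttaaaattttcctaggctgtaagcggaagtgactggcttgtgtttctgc
Gimap5, chr6:48745947-48746196, plus strand: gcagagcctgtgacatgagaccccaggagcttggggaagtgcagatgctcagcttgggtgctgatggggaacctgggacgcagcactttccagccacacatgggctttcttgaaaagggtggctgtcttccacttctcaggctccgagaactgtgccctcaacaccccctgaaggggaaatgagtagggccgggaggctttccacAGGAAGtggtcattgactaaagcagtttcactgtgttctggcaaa
The Ets letters stood in 6 of the 8 promoters (not in Gimap6 or Gimap8) and in 29.5% of 32851 promoter windows of this length in the table. Gimap4 had 2 such matches, and they began 87 and 33 bases before the RefSeq start. By the GENCODE start, the last 29 bases of the Gimap4 window are exonic and the second match spans that start. Runx letters (TGTGGT or ACCACA) stood in 3 of 8, those of Gimap1, Gimap4 and Gimap7, against 14.0% of all windows. Sp/Klf letters (GGGCGG or CCGCCC) stood in 2 of 8 (32.7% of all), TTCNNNGAA of Stat factors in 1 (7.02%), GTAAACA or TGTTTAC of Foxo factors in 1 (3.17%), TATAAA or TTTATA in 1 (12.4%) and CTTTGA or TCAAAG of Tcf/Lef factors in 0 (13.8%). The windows of neighbouring genes can overlap on the 2 strands, and a match is a description of letters only. Binding was not measured in these samples.

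Gimap6, Gimap3 and Gimap4 were among the better detected genes of these T cells. Their mean normalized counts over the 21 samples were 95.9 ± 14.5, 94.3 ± 14.5 and 92.5 ± 17.1 (SD, n = 21), each above at least 98.1% of the genes in the table. Together they made up 63.7% to 79.9% of the Gimap molecules of a sample (median 73.7%). Gimap1 followed with 29.9 ± 10.3, Gimap5 with 24.3 ± 9.70, Gimap9 with 23.6 ± 7.81, Gimap8 with 15.6 ± 4.54 and Gimap7 with 7.96 ± 3.61 (SD, n = 21). Per kilobase of transcript, the mean normalized counts were 60.1 for Gimap6, 51.3 for Gimap4, 43.9 for Gimap3, 20.0 for Gimap1, 17.1 for Gimap9, 12.5 for Gimap5, 6.27 for Gimap7 and 4.97 for Gimap8. Dividing by length moved Gimap4 above Gimap3, Gimap9 above Gimap5 and Gimap7 above Gimap8. A molecule tagged at its 5′ end is counted once whatever its length, so the undivided value is the closer to a number of transcripts. No member was at 0 in any sample, and only Gimap7 fell to the floor of 3 molecules or under, in 2 samples. Gimap6 is a partner of the autophagy protein GABARAPL2, Gimap4 has been tied to the pace of T cell death, and Gimap3 is a membrane-anchored relative of Gimap5.

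**Figure D1:**
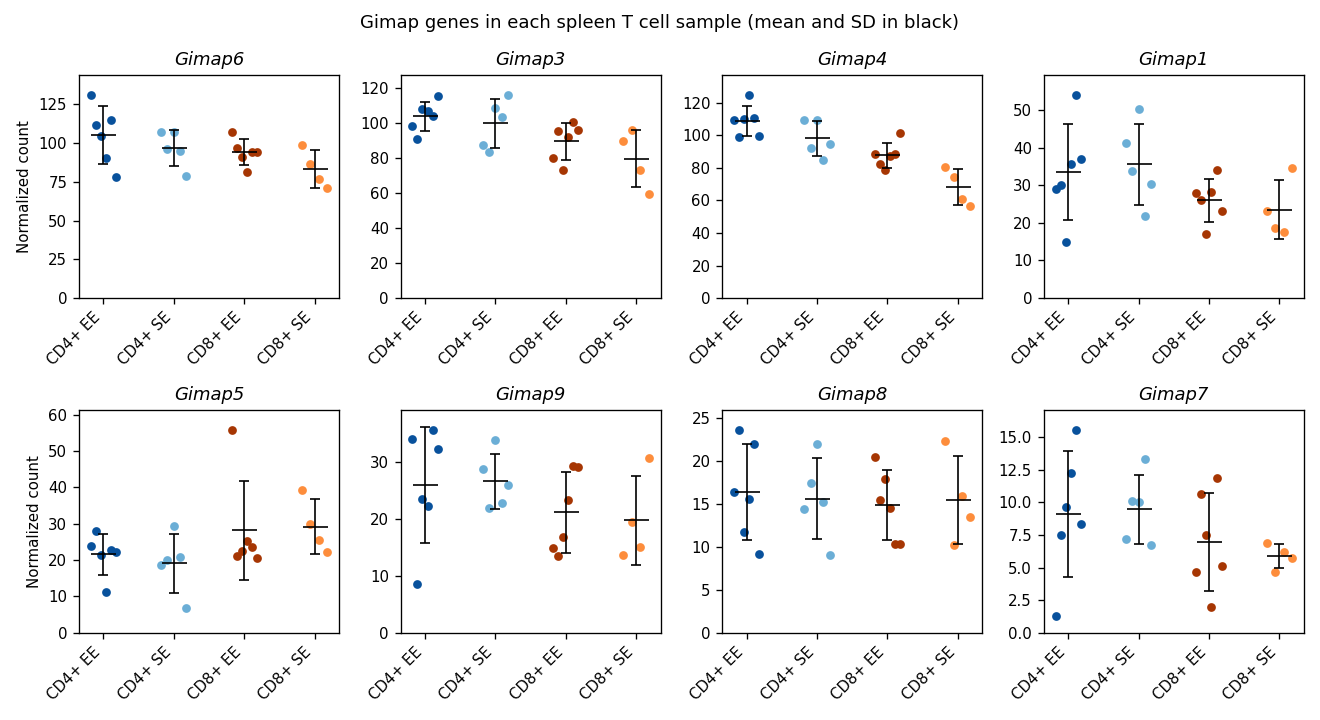
Normalized count (vertical axis, from 0) of each Gimap gene in every sample of the 4 groups, with the group mean and SD in black; scales differ between panels. Gimap4 in CD8+ SE samples lies at 56.7 to 80.5, below all 5 CD4+ SE samples, and 1 CD8+ EE sample stands apart at 55.8 for Gimap5.

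The comparison of CD4+ with CD8+ T cells asked whether the 2 populations used the cluster alike. Gimap4 was higher in CD4+ T cells and was the only member called. In CD4+ EE samples its normalized count ran from 98.7 to 124.7 with a median of 109.8. In the CD4+ SE samples it was 109.1, 92.4, 109.7, 84.5 and 94.6. Each CD4+ group thus held values on both sides of 100, and the groups overlapped.
In CD8+ EE samples it ran from 79.0 to 101.3 with a median of 87.9, and in the CD8+ SE samples it was 80.5, 74.5, 60.9 and 56.7. The CD4+ and CD8+ samples overlapped within EE, whereas within SE every CD4+ sample was above every CD8+ sample. The mean was 104 ± 11.2 (SD, n = 11) in CD4+ and 79.9 ± 13.3 (SD, n = 10) in CD8+ samples, a ratio of 1.3. On the scale of log2(normalized count + 1), on which all differences below are given, the difference was 0.42 (SE 0.09, adjusted p = 0.00144, limma with Benjamini-Hochberg adjustment over all genes tested). In the same fit 349 of 7938 genes (4.4%) were called in either direction and 2.33% were called higher and 2.07% lower in CD4+ cells, against 1 of the 8 Gimap genes. Gimap4 was called in this comparison under each alternative and with each sample left out, with adjusted p between 3.8e-04 and 0.0222. Within SE mice its difference was 0.53 (SE 0.14, adjusted p = 0.0289, limma), where 1.51% of genes were called, and within EE mice it was 0.31 (SE 0.12, adjusted p = 0.204), where 2.66% were called. The difference between those differences was not shown (interaction -0.22, 95% interval -0.59 to 0.15, adjusted p = 0.994). The call within SE was lost when the 3 SE samples with no partner (CD4+ replicates 4 and 5 and CD8+ replicate 2) were left out, both without the mouse as a block (0.59, adjusted p = 0.0819, limma) and with it (0.59, adjusted p = 0.0573). It was lost as well without CD8+ SE replicate 3, which was high in haemoglobin RNA (0.48, adjusted p = 0.143). It was also lost without CD4+ SE replicate 1 (0.49, adjusted p = 0.0851), CD4+ SE replicate 4 (0.48, adjusted p = 0.0971) or CD8+ SE replicate 6 (0.44, adjusted p = 0.1803).
CD4+ SE replicate 1 had a B-cell marker sum of 36.0, within the range of the CD8+ samples, and its Gimap4 count was 109.1. CD8+ EE replicate 6 had the highest B-cell marker sum of the CD8+ samples, 106, and also their highest Gimap4 count, 101.3. The part of B-cell RNA in the Gimap4 difference was not tested. Without both CD8+ samples high in haemoglobin RNA, the Gimap4 difference over both housings was 0.41 (adjusted p = 0.00492, limma).

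Gimap5, a member needed for T cell survival, had a lower mean in CD4+ than in CD8+ samples, a difference that did not pass the test over all samples. In CD4+ EE samples its normalized count ran from 11.1 to 27.9 with a median of 22.5, and in the CD4+ SE samples it was 18.5, 20.1, 29.3, 20.9 and 6.76. In CD8+ EE samples it ran from 20.6 to 55.8 with a median of 23.1, and in the CD8+ SE samples it was 39.4, 29.8, 25.6 and 22.1. All 4 groups overlapped, and the widest gap was that of CD8+ EE replicate 1 at 55.8 to the next of its group at 25.2. The means were 20.4 ± 6.58 (SD, n = 11) in CD4+ and 28.6 ± 11.1 (SD, n = 10) in CD8+ samples, a ratio of 0.715. The difference was -0.50 (SE 0.19, adjusted p = 0.137, limma) and was not called. Over the 9 mice with both populations it was -0.66, which was not called without the block (adjusted p = 0.0729, limma). With the mouse as a replicate block it was called (adjusted p = 0.0330, limma), which brought the number of Gimap genes called to 2. In that blocked fit 315 of all 7949 genes tested were called. The call of Gimap5 was lost when EE mouse 1 (-0.57, adjusted p = 0.115), EE mouse 4 (-0.58, adjusted p = 0.0923), SE mouse 1 (-0.64, adjusted p = 0.132) or SE mouse 6 (-0.51, adjusted p = 0.237) was left out of the blocked fit, and held without each of the other 5. With a mouse left out, 220 to 294 genes were called in all.

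The remaining members did not pass the test. Gimap3 had 102 ± 10.8 (SD, n = 11) in CD4+ and 85.7 ± 13.4 (SD, n = 10) in CD8+ samples, a log2 difference of 0.28 (adjusted p = 0.0971, limma). Because of the run it shares with Gimap5, their sum was also taken: it was 103 to 138 in CD4+ samples and 81.7 to 136 in CD8+ samples, with medians of 123 and 117, and was higher in the CD4+ sample in 7 of 9 mice. Gimap1, which mature lymphocytes need to survive, had 34.4 ± 11.3 (SD, n = 11) and 25.0 ± 6.32 (SD, n = 10), a log2 difference of 0.43 (adjusted p = 0.166, limma). Gimap1 was called (0.53, adjusted p = 0.0370) when CD4+ EE replicate 3, its lowest sample at 15.0, was left out. Its antisense neighbour Gimap1os had 6.09 ± 2.97 (SD, n = 11) and 4.96 ± 3.39 (SD, n = 10), and a log2 difference of 0.35 (adjusted p = 0.725, limma).
Gimap6 had 101 ± 15.7 (SD, n = 11) in CD4+ and 89.8 ± 10.8 (SD, n = 10) in CD8+ samples. The log2 difference of Gimap6 was 0.18 with a 95% interval from -0.01 to 0.37. Gimap9, whose role is little known, had 26.3 ± 7.84 (SD, n = 11) and 20.6 ± 6.96 (SD, n = 10), with a difference of 0.34 and an interval from -0.03 to 0.72. Gimap7, a GTPase that can act on other GIMAP proteins, had 9.26 ± 3.80 (SD, n = 11) and 6.52 ± 2.92 (SD, n = 10), and its interval from -0.14 to 1.00 was the widest of the 8, with counts of 1 to 17 molecules behind it. Gimap8, the member with several GTPase domains in 1 protein, had 16 ± 5.0 (SD, n = 11) and 15.1 ± 4.2 (SD, n = 10), a difference of 0.06 with an interval from -0.33 to 0.46, and its sign turned when the 3 samples with no partner were left out (-0.11, with or without the mouse as a block). In all, 7 of the 8 log2 differences were positive, and their median was 0.31, while the median over all 7938 genes was -0.007 and 48.9% of them were positive.

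**Figure D2:**
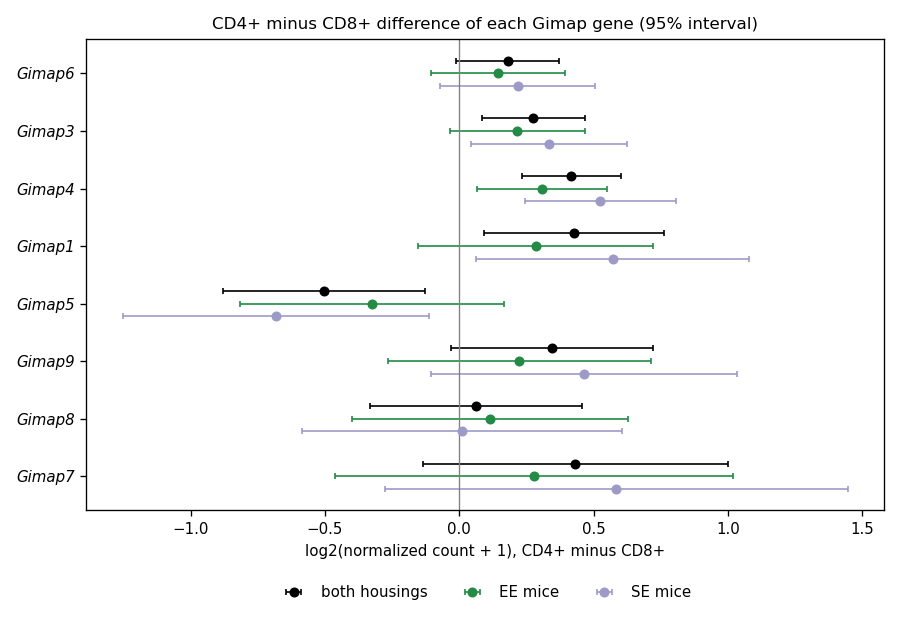
Difference of log2(normalized count + 1) between CD4+ and CD8+ T cells (horizontal axis) for each Gimap gene, over both housings (black), in EE mice (green) and in SE mice (violet), with 95% intervals that are not adjusted for the number of genes. Gimap4 lies at 0.42 and Gimap5 at -0.50 over both housings, and the interval of Gimap8 spans 0 in each.

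Within a mouse, the 2 populations could be set side by side in 9 animals. The normalized count of Gimap4 was higher in CD4+ cells in 8 of 9 mice, with differences from -0.02 to 0.73 and a median of 0.43. Gimap6 was also higher in 8 of 9, and Gimap1, Gimap3 and Gimap7 were higher in 7 of 9. Gimap9 was higher in CD4+ cells in 6 of 9 mice and Gimap8 in 4 of 9. Gimap5 was higher in CD4+ cells in 2 of 9, with differences from -1.57 to 0.38 and a median of -0.33. The sum over the 8 genes was higher in the CD4+ sample of every one of the 9 mice, by 0.08 to 0.36 (median 0.24), although the sums overlapped between the populations (368 to 480 in CD4+ and 291 to 399 in CD8+ samples).

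**Figure D3:**
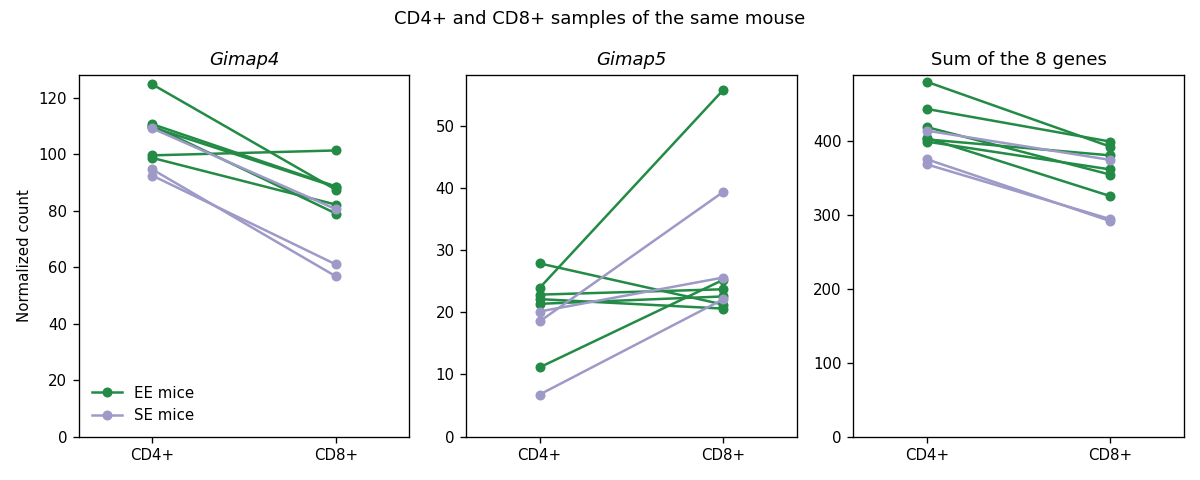
Normalized count (vertical axis, from 0) in the CD4+ and CD8+ samples of the same mouse, joined by a line, for Gimap4, Gimap5 and the sum of the 8 Gimap genes; green lines are EE mice and violet lines SE mice. The sum falls from CD4+ to CD8+ in 9 of 9 mice and Gimap4 in 8 of 9, whereas Gimap5 rises in 7 of 9.

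The make-up of the family is given as a share of the Gimap molecules of each sample, with no test. Gimap4 accounted for 25.2% ± 2.09 (SD, n = 11) of them in CD4+ and 22.7% ± 2.08 (SD, n = 10) in CD8+ samples. Gimap5 accounted for 4.91% ± 1.49 (SD, n = 11) and 8.1% ± 2.59 (SD, n = 10), and Gimap3 for 24.8% ± 3.38 (SD, n = 11) and 24.4% ± 2.67 (SD, n = 10). The normalized count of Gimap4 was 3.54 to 14.0 times that of Gimap5 in CD4+ samples (median 4.59) and 1.58 to 4.92 times in CD8+ samples (median 3.01), so that the ranges overlapped, and the ratio was higher in the CD4+ sample in 7 of 9 mice. The ratio of Gimap3 to Gimap5 was higher in the CD4+ sample in 8 of 9 mice. The ratio of Gimap4 to Gimap6 was 0.837 to 1.38 in CD4+ and 0.793 to 1.07 in CD8+ samples, and it was higher in the CD4+ sample in 9 of 9 mice. Ratios of other pairs of members were not computed, so how often a ratio goes 1 way in all 9 mice was not tested.

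Genes around the cluster were examined for the same contrast. GENCODE lists 77 other genes within 1 Mb of it, of which 25 were in the table and 15 had a mean normalized count above 2 and were tested. Of these, 9 differences were positive and 6 negative, with a median of 0.02. The gene Zfp467, which encodes a zinc finger protein and starts at -219.5 kb from the start of the cluster, was called (2.03, SE 0.35, adjusted p = 1.82e-05, limma) at a mean normalized count of 3.45. The nearest tested genes outside the cluster were Lrrc61 on one side (0.64, SE 0.37, adjusted p = 0.443) and Malsu1 on the other (-0.14, SE 0.29, adjusted p = 0.888).

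**Figure D4:**
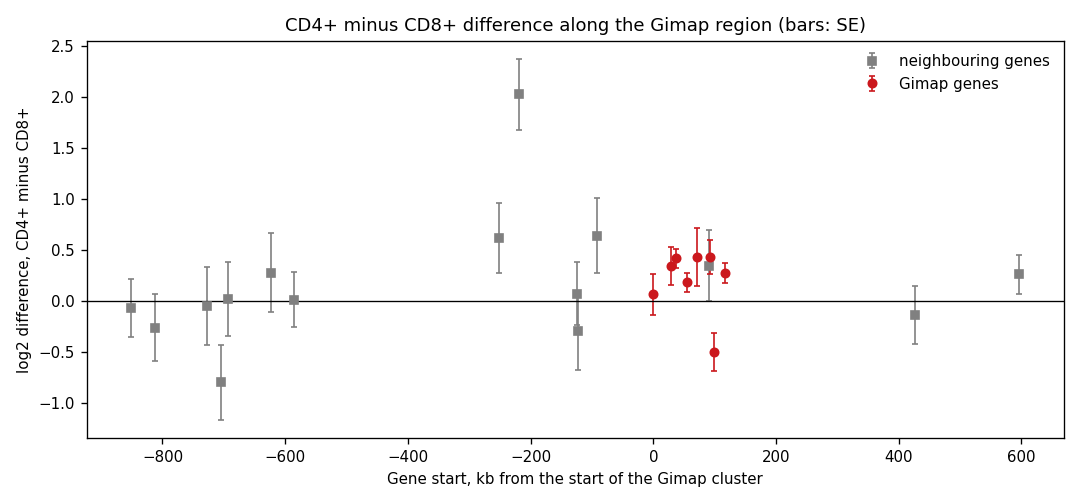
Difference of log2(normalized count + 1) between CD4+ and CD8+ T cells (vertical axis, bars are SE) against the position of the gene start in kb from the start of the Gimap cluster (horizontal axis), for the 8 Gimap genes (red circles) and 15 tested neighbours (grey squares). Among the neighbours Zfp467 stands at 2.03, and among the members Gimap5 is the only one below 0.

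The comparison of EE with SE asked whether housing moved the family. In CD4+ T cells 0 of the 8 Gimap genes were called by limma, edgeR or DESeq2, where limma called 1 of 7939 genes (0.0126%), edgeR 2 and DESeq2 1. No member had an unadjusted p under 0.05, while 462 genes of the 7939 did. The difference of Gimap5 was 0.24 with a 95% interval from -0.30 to 0.79, and it was -0.07 without CD4+ SE replicate 6, the sample at 6.76. The mean of Gimap4 was 109 in EE (SD 9.45, n = 6) against 98.1 in SE (SD 11.0, n = 5), a difference of 0.15 with an interval from -0.12 to 0.42. For Gimap3 and Gimap6 the intervals ran from -0.21 to 0.34 and from -0.18 to 0.39, and Gimap7 had a difference of -0.24 with an interval from -1.0 to 0.52.

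In CD8+ T cells 0 of the 8 were called by the same 3 tools, and each called 0 of 7840 genes (0%), while 413 genes had an unadjusted p under 0.05 in limma. Gimap4 was the only one of the members among these. Samples of EE mice had a mean of 87.8 (SD 7.67, n = 6) against 68.2 (SD 11.2, n = 4) for SE mice, a ratio of 1.29, and the groups overlapped at 79.0 to 80.5. The difference was 0.37 (SE 0.13, unadjusted p = 0.00796, adjusted p = 0.832, limma), the 75th smallest p of the 7840. Both samples high in haemoglobin RNA are CD8+ samples, 1 of each housing, and without them the difference was 0.28 (unadjusted p = 0.0685, limma). Lyz2, a myeloid marker too low to be tested, was at 0 in all 6 CD8+ EE samples and at 0.856 to 11.5 in the 4 CD8+ SE samples, and of 3 B-cell markers tested, 0 were called, with a median difference of 0.77 (Cd79b 0.85, unadjusted p = 0.0548, limma). The sum of the 8 B-cell markers was 34.8 to 106 in CD8+ EE and 38.5 to 48.6 in CD8+ SE samples. The part of these RNAs in the Gimap4 difference was not tested. Gimap3 and Gimap6 had differences of 0.18 each, with intervals from -0.09 to 0.46 and from -0.07 to 0.44. The other 5 members lay between -0.11 and 0.16. The interaction of housing and population was called for 0 of the 8 members and for 0 of 7938 genes (0%) by limma, edgeR and DESeq2, and 393 genes but no member had an unadjusted p under 0.05 in limma.

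In the order of the 4 groups, Gimap4 ran from CD4+ EE (109) through CD4+ SE (98.1) and CD8+ EE (87.8) to CD8+ SE (68.2). Of these neighbours in the order, only the 2 CD8+ groups differed by more than the larger of their SDs. For Gimap3 and Gimap6 the order was the same, but no neighbouring groups differed by more than an SD. The same held of the neighbouring groups of each of the other 5 members.

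**Figure D5:**
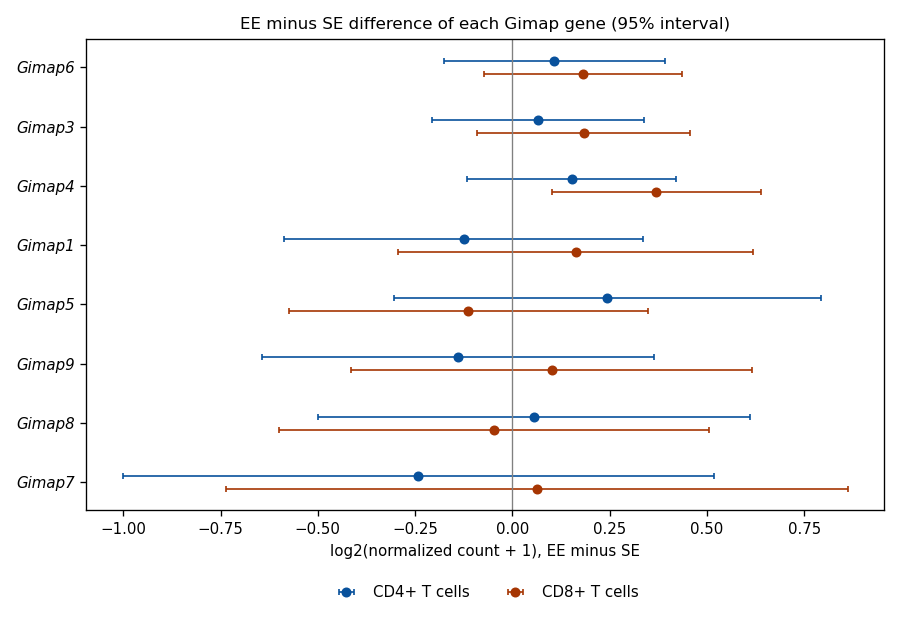
Difference of log2(normalized count + 1) between EE and SE (horizontal axis) for each Gimap gene in CD4+ (blue) and CD8+ (brown) T cells, with 95% intervals that are not adjusted for the number of genes. The interval of Gimap4 in CD8+ cells, from 0.10 to 0.64, is the only one that leaves out 0, and no member passed the adjusted threshold.

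Genes that work with GIMAP proteins were taken as lists and described for the contrast of CD4+ with CD8+ cells, in which 4.4% of genes were called. Of the BCL2 family, which sets the threshold for cell death, 7 of 10 genes were tested and 0 were called, with a median difference of -0.49. The smallest p in it was that of Bid, a pro-death member, at -0.99 (adjusted p = 0.179, limma). Of the genes of GSK3 and beta-catenin, 5 of 5 were tested and 0 called (median -0.05), with Gsk3b at 0.32 (adjusted p = 0.693). Of the autophagy genes, 10 of 12 were tested and 0 called (median -0.002). Gabarapl2, whose product binds GIMAP6, had 35.3 ± 9.51 (SD, n = 11) in CD4+ and 25.4 ± 6.08 (SD, n = 10) in CD8+ samples, a difference of 0.44 (adjusted p = 0.105, limma). Of the genes of IL-7 signalling and quiescence, 13 of 13 were tested and 0 called (median 0.02), with Slfn2, a gene of T cell quiescence, at 0.25 (adjusted p = 0.203).
The interferon-induced GTPases, another group of GTPases of immunity, went the other way from Gimap4 where they were called. Of 15 genes 11 were tested, 0 were called higher and 2 lower in CD4+ cells, with a median difference of -0.30. Gbp2, a guanylate-binding protein, had 2.97 ± 1.91 (SD, n = 11) in CD4+ and 7.10 ± 2.41 (SD, n = 10) in CD8+ samples (-1.19, SE 0.34, adjusted p = 0.0235, limma), and Gvin1, a very large interferon-induced GTPase, had 12.1 ± 6.56 (SD, n = 11) and 19.9 ± 4.70 (SD, n = 10) (-0.86, SE 0.23, adjusted p = 0.0145, limma).
Between EE and SE, 0 genes of these 5 lists were called in either population, and the same held of the interaction. The smallest unadjusted p of these lists in CD8+ cells was that of Il7r, the IL-7 receptor chain (0.36, unadjusted p = 0.00845, adjusted p = 0.837, limma), and in CD4+ cells that of Tsc1, a brake on cell growth (-1.15, unadjusted p = 0.0139, adjusted p = 0.741, limma).

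The genes whose profile over the 21 samples was most like that of the summed Gimap count were Ly6e, Gpr183, Itm2b, Ifi27l2a and Trbd2. Likeness was the root mean square difference between standardized log2 profiles, which was 0.637, 0.679, 0.695, 0.719 and 0.721 SD units for these genes, against a median of 1.38 over 2720 genes with a mean above 10. Gpr183, a receptor that guides lymphocytes within the spleen, had 39.8 ± 6.75 (SD, n = 6) and 27.3 ± 4.92 (SD, n = 5) in CD4+ EE and SE samples and 17.1 ± 2.58 (SD, n = 6) and 13.0 ± 3.86 (SD, n = 4) in CD8+ EE and SE samples. The interferon-responsive gene Ifi27l2a had 243 ± 24.6 (SD, n = 6), 211 ± 19.2 (SD, n = 5), 160 ± 20.9 (SD, n = 6) and 121 ± 17.3 (SD, n = 4) in the same order.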

How the data were processed

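Spleen CD4+ and CD8+ T cells were profiled by UMI-tagged cDNA sequencing on an Ion Proton. The authors trimmed reads with cutadapt, aligned them with STAR 2.4.0a to mm10, counted molecules per gene on an Ensembl GRCm38 model, filtered low-abundance genes and normalized with DESeq2. The deposited signal is thus a molecule count divided by a size factor. Dividing each column by its smallest positive value gave whole molecules for 100% of values (tolerance 0.001).

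Groups and animal numbers came from the sample labels. CD4+ and CD8+ samples with the same number and housing were taken as the same mouse, as the animal numbers in the labels give it (mean correlation of their deviations 0.014 over 9 pairs). The running sample numbers of the SE mouse 6 pair are far apart, unlike those of the other 8 pairs. EE and SE animals share only numbers. Differences were fitted with limma 3.58.1 (trend, R 4.3.3) on log2(normalized count + 1) for genes with a mean above 2, with Benjamini-Hochberg adjustment over all of them and a threshold of 0.05. CD4+ and CD8+ were compared over all 21 samples with 4 group means, and EE and SE within a population. The study used DESeq2; limma was chosen because the values are normalized. Alternatives were a pseudocount of 0.5, no filter, a mean above 10, equal totals, edgeR 4.0.16 and DESeq2 1.42.0 on recovered molecules, all samples in the fit, a replicate block and each sample left out. The fits were tested on simulated data.

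The members and gene lists were chosen with earlier results of these data known. All members are named. From each list every called gene is named, or else the gene with the smallest p, as are called genes within 1 Mb and the 5 genes most like the family. P-values rest on the spread between mice; per the labels, the mice of a housing in an experiment came from a shared cage.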

Additional observations from a re-analysis of the deposited data

Results flagged for a closer look

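Of 32 sets of samples (8 genes in 4 groups), 1 held a sample whose gap to the nearest of the others took up an unusually large part of the whole range (0.868, Dixon's criterion at 95%), where chance gives about 1.6. It was Gimap5 in CD8+ EE replicate 1, with a normalized count of 55.8 (60 molecules), while the other 5 samples of the group had 20.6 to 25.2. Gimap3, its close copy, had 80.0 in the same sample, within the 73.3 to 100.4 of the group. Without that sample the Gimap5 difference between CD4+ and CD8+ cells was -0.40 (adjusted p = 0.294, limma).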

How the results depend on the processing

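Of the counts of Gimap genes called, those for EE against SE in either population, for the interaction and within EE were 0 under every alternative and with each sample left out. For CD4+ against CD8+ cells the count of 1 became 2 with the mouse as a replicate block (Gimap4 and Gimap5), where 315 of all 7949 genes tested were called. It was 1 to 2 with a sample or mouse left out. Within SE the count of 1 became 0 with the replicate block, without the samples that have no partner (0, no block) and without the 2 CD8+ samples high in haemoglobin RNA, and was 0 to 1 with a sample left out. The cause was not tested. The samples left out there were CD4+ SE replicates 1 and 4 and CD8+ SE replicates 3 and 6, and without each of them Gimap4 was no longer called. Leaving out the 2 CD8+ samples, the samples with no partner, or a mouse from the blocked fit, and all alternatives within 1 housing were chosen after seeing the data.

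Of 1132 values recomputed for single genes, 56 changed sign, none of them of a called gene. With a replicate block of animal numbers, EE minus SE was -0.058 for Gimap8 and 0.13 for Gimap9 in CD4+ cells and 0.059 and -0.075 in CD8+ cells. Those animals are different mice that share only a number. With the mouse as a block, CD4+ minus CD8+ was -0.11 for Gimap8, and -0.33 within SE. A blocked fit also drops the samples with no partner, and leaving these out with no block gave the same 6 values, so the sign changes came with the dropped samples. The block itself changed the call of Gimap5 and no other. Without the 2 CD8+ samples, EE minus SE in CD8+ cells was 0.070 for Gimap8 and -0.10 for Gimap9, and the interaction was -0.015 for Gimap8.

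With a sample left out, EE minus SE in CD4+ cells ran from -0.28 to 0.078 for Gimap1, -0.068 to 0.42 for Gimap5, -0.43 to 0.15 for Gimap7, -0.11 to 0.20 for Gimap8 and -0.25 to 0.13 for Gimap9. In CD8+ cells it ran from -0.32 to 0.037 for Gimap5, -0.11 to 0.32 for Gimap7, -0.21 to 0.14 for Gimap8 and -0.042 to 0.33 for Gimap9. CD4+ minus CD8+ ran from -0.22 to 0.15 for Gimap8, mice left out of the blocked fit included, and from -0.16 to 0.19 within SE. The interaction ran from -0.21 to 0.012 for Gimap3, -0.16 to 0.0063 for Gimap6, -0.56 to 0.082 for Gimap7, -0.080 to 0.27 for Gimap8 and -0.47 to 0.033 for Gimap9. Gimap7 rests on 1 to 17 molecules per sample and Gimap8 on 8 to 26, and the part of depth in these ranges was not tested.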
